A study of Mus musculus with 17 samples.

Results

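Olfactory receptors (gene symbols Olfr) and vomeronasal receptors (Vmn1r and Vmn2r) are the odour and pheromone receptors of the nose. This report describes 8 of their genes in an exome study of mouse pancreatic tumours: Olfr44, Olfr186, Olfr239, Olfr910, Olfr933, Olfr944, Olfr1135 and Vmn2r101. They were selected on measured data, with earlier results of these data known. Each has at least 1 line in the deposited table of tumour mutations, which by itself does not single them out. They are 8 of the 209 genes in that table and hold 17 of its 390 calls, a call being 1 altered site in 1 tumour. Counted once per mouse, the 17 calls fall on 10 of 264 sites, in 7 of the 11 tumours and in 4 of the 6 mice. The same table holds 16 more olfactory or vomeronasal receptor genes with 24 calls at 18 sites, so the 8 genes are a subset of the 24 receptor genes with a call.

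The series compares 11 pancreatic tumours with 6 pancreatic control samples, 1 control for each mouse, in a study of neuroendocrine tumours in which the receptor for glucagon, GCGR, has lost its function. There are 3 tumours from mouse 3, 2 from each of mice 1, 2 and 6, and 1 from each of mice 4 and 5. The labels used here give no genotype, strain or age for any mouse and no treatment beyond standard chow, and tumours of 1 mouse share their host and their control. Exome capture used a kit that the labels call human although the samples are mouse. A further 12 lines of the table carry no content here, and which genes they concern is not known.

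Olfactory receptors are G protein-coupled receptors encoded by short coding regions, usually in 1 exon, and each olfactory neuron uses a single one of them. Vmn2r genes encode vomeronasal receptors with a large extracellular N-terminal part and are spread over several exons. Both are large multigene families that arose by local duplication, so neighbours are alike in sequence, many copies are pseudogenes, and laboratory strains differ at many receptor loci. In tumour sequencing, a passenger mutation is one that does not drive growth, and receptor genes that are silent in the tissue are a common place for such mutations. Short reads of similar genes can also be placed on the wrong copy. Neither passenger status nor read placement was tested here, since the deposited table holds no expression values and no reads.

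The reference gene table (RefSeq, GRCm38) shows the size of these families. It lists 1110 Olfr, 231 Vmn1r and 124 Vmn2r genes as protein-coding, beside 317, 142 and 148 pseudogenes. With the small trace amine (Taar) and formyl peptide (Fpr) receptor families, which had 0 calls, these make 1487 of 21896 coding genes (6.79%). How alike the copies are can be seen at the start of the coding region, where 3 of the 8 genes have a window that opens with the start codon. Below are the first 50 coding bases, 5′ to 3′, of 2 chromosome 9 receptors altered in mouse 1, each above the closest of the 685 other Olfr genes compared, with the bases that differ within a pair in capitals (RefSeq, GRCm38).
Olfr933: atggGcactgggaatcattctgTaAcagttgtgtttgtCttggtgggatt
Olfr930: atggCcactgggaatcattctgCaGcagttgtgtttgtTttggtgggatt
Olfr944: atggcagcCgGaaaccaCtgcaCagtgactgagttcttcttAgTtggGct
Olfr948: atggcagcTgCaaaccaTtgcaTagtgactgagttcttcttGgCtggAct
Olfr933 matched Olfr930 at 46 of 50 bases and Olfr944 matched Olfr948 at 43, whereas Olfr933 and Olfr944 matched each other at 27. Olfr1135, on chromosome 2, matched its closest gene Olfr1138 at 37. The median over the 685 Olfr genes compared was 18 matching bases for Olfr933 and Olfr1135 and 19 for Olfr944. These windows do not reach the altered sites, whose own sequence is not used here.

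All 10 sites changed the protein. Missense changes, which swap 1 amino acid, made up 8 of them, and the other 2 were a frameshift and a stop codon. The table holds 0 synonymous calls in any gene, which raises the share of protein-altering sites for all genes. At the sites in genes of no receptor family, 212 of 236 changed the protein (89.8%). Of those 236 sites, 196 were missense (83.1%) and 10 were a frameshift or a stop codon (4.24%). The difference from the 8 genes was not tested. Positions are given as the file gives them and are read as GRCm38. All 28 receptor sites lie inside the GRCm38 span of their gene, and the 12 sites in genes whose span holds coding sequence alone all sit at the exact base that the file's coding position predicts.

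Most calls of the 8 genes came from mouse 1, which carried 5 of the 10 sites. Over all genes, mouse 1 also held 142 of the 264 sites, and its 2 tumours held 108 and 125 of the 390 calls. Both tumours of mouse 1 had all 5, and both had 80 of its 130 sites in genes of no receptor family. Olfr910 carried L299V (ENSMUSG00000057444, chromosome 9, 38539791, C to G), 11 residues before the end of a protein of 310 residues. Its allele fraction, the share of reads with the alternate base, was 10.9% in tumour 1 and 16.4% in tumour 2. Olfr933 carried S175R in the middle of its protein (ENSMUSG00000058515, chromosome 9, 38976200, A to C; residue 175 of 308). Its fractions were 12.8 and 14.1%. For both genes the control fraction was 0.

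Olfr944 carried S67P (ENSMUSG00000096555, chromosome 9, 39217557, T to C; residue 67 of 311) at 10.7 and 13.9%, with a control fraction of 0. It is the only 1 of the 10 sites in the second of the file's tiers, a score of 1 or 2 whose meaning is read from a column name. Olfr44 carried S70P (ENSMUSG00000062649, chromosome 9, 39485044, A to G on the forward strand; residue 70 of 314) at 6.25 and 7.69%. This was the only site of the 10 with alternate reads in the control, at 0.249%. The changes in Olfr944 and Olfr44 are alike, which was seen by looking through the calls of the selected genes and is not independent of their choice. Both replace serine with proline by the same coding-strand change, T to C at the first base of the codon (coding positions 199 and 208), and both lie 244 residues before the end of their protein. The Olfr44 protein is 3 residues longer and its changed residue lies 3 further on. Whether the residues align, and whether reads of one gene were placed on the other, was not tested because no protein or genome sequence is used here.

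These 4 sites form a chain on chromosome 9 of 945 kb, from 38539791 to 39485044, with gaps of 436, 241 and 267 kb. With neighbours of a mouse joined where they lie within 1 Mb, the table has 12 chains of 3 or more sites, and this is the only 1 of the 12 that holds a receptor site. The stretch overlaps 35 coding genes, of which 34 are Olfr genes, and 17 Olfr pseudogenes. The other coding gene is Vwa5a, which had 0 calls. Mouse 1 had 5 other sites on chromosome 9 outside the stretch, the nearest 4850 kb further on. Olfr933, Olfr944 and Olfr44 carry older names of 1 receptor subfamily, MOR171, of which 22 of 36 coding members lie in the stretch and 35 on chromosome 9. Olfr910 belongs by its older name to MOR165, with 6 of 8 coding members there. Of all 1110 Olfr coding genes, chromosome 9 holds 130 (11.7%) and chromosome 2 holds 287 (25.9%). Among the 19 Olfr genes with a call, 4 were on chromosome 9 and 7 on chromosome 2. The map of the chromosome 9 stretch shows the 4 sites against the coding genes.

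**Figure D1:**
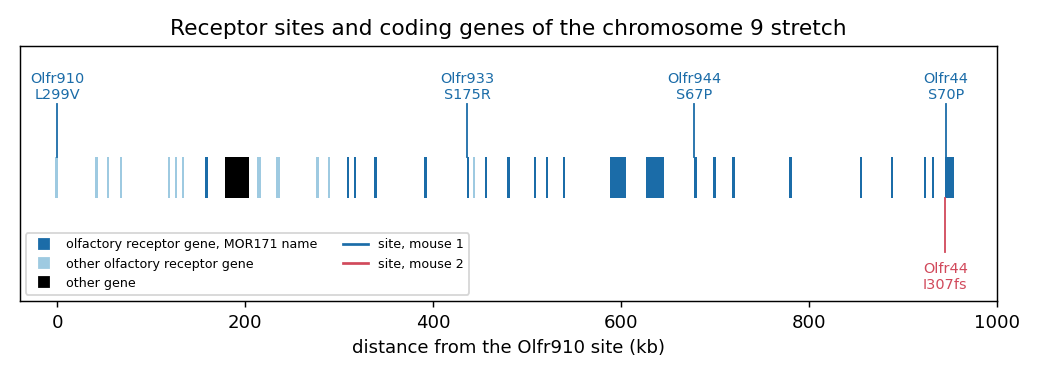
Map of the chromosome 9 stretch, with distance from the Olfr910 site in kb on the x axis. Blocks are coding genes (dark blue, Olfr genes with a MOR171 name; light blue, other Olfr genes; black, the 1 other gene), lines above are the 4 sites of mouse 1, and the line below is the Olfr44 frameshift of mouse 2; the sites span 945 kb in a row of olfactory receptor genes.

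The remaining site of mouse 1 lay in Vmn2r101, a vomeronasal receptor gene with 857 residues (ENSMUSG00000094892). T162A (chromosome 17, 19589094, A to G) stood at 3.02% in tumour 1 and 9.09% in tumour 2, with a control fraction of 0. In mouse 1 the fraction was higher in tumour 2 at all 5 sites of the 8 genes. The ratio of tumour 2 to tumour 1 ran from 1.1 for Olfr933 to 3.02 for Vmn2r101, with a median of 1.29. At the 80 sites that both tumours shared in genes of no receptor family the median ratio was 1.31, and 63 of them were higher in tumour 2. The median over all calls was 11.8% in tumour 1 and 14.7% in tumour 2, and of the 10 calls in the 8 genes, Olfr933 in tumour 1 and Olfr910 in tumour 2 lay above it.

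Mouse 2 had 2 sites in the 8 genes, both in both tumours and both at higher fractions than any of the 5 sites of mouse 1. Of the 44 sites of mouse 2 in genes of no receptor family, 32 were in both tumours. Olfr239 carried N42T (ENSMUSG00000093884, chromosome 17, 33199186, A to C; residue 42 of 315) at 52.9 and 50.9%. These rank 9 of 43 and 5 of 37 calls from the top of their tumours. The site has no identifier of a variant database, which would mark a variant already listed there. Olfr44 carried the frameshift I307fs, a deletion of 1 base (chromosome 9, 39484332, AT to A), at 36.4 and 47.9%. It is the only 1 of the 10 sites with a database identifier. It falls at residue 307 of 314, leaving 7 residues after it. The control fraction was 0 at both sites.

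Olfr44 is thus altered in mice 1 and 2 by different events, 712 bp apart, at residues 70 and 307 of 314 and at fractions that do not overlap. Mouse 2 had a median fraction of 41.0% at its sites outside the receptor families, against 13.0% in mouse 1. Within its tumours S70P ranked 85 of 108 and 109 of 125 calls, and I307fs ranked 27 of 43 and 9 of 37. Whether the difference between the Olfr44 calls follows the difference between the mice was not tested. The frameshift has an identifier and the missense change has not. In mouse 2 the nearest other site on the chromosome lay 18013 kb away, so the frameshift is not part of a chain there. For Olfr239 the nearest was 14201 kb away.

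Mouse 3 had 2 sites in the 8 genes, each in 1 of its 3 tumours. Olfr186 carried I46S in tumour 3 (ENSMUSG00000047960, chromosome 16, 59027769, A to C; residue 46 of 309) at 25.7%, the highest of 17 calls in that tumour, whose median was 7.29%. Vmn2r101 carried the stop codon G226* in tumour 2 (chromosome 17, 19589629, G to T) at 5.47%, rank 11 of 15 calls. The stop lies 535 bp from the T162A site of mouse 1 and precedes 631 of the 857 residues. Both changes in Vmn2r101 lie in the first 26.4% of the protein. The control fraction was 0 for both sites of mouse 3.

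Mouse 5 had 1 site, P79L in Olfr1135 (ENSMUSG00000075153, chromosome 2, 87672130, G to A; residue 79 of 310), at 28.9% in its only tumour with a control fraction of 0. It ranked 2 of 7 calls, and the tumour median was 9.76%. The single tumour of mouse 4 and the 2 tumours of mouse 6 had 0 calls in the 8 genes, among 14, 6 and 5 calls. Tumour 1 of mouse 3 also had 0, among 13.

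**Figure D2:**
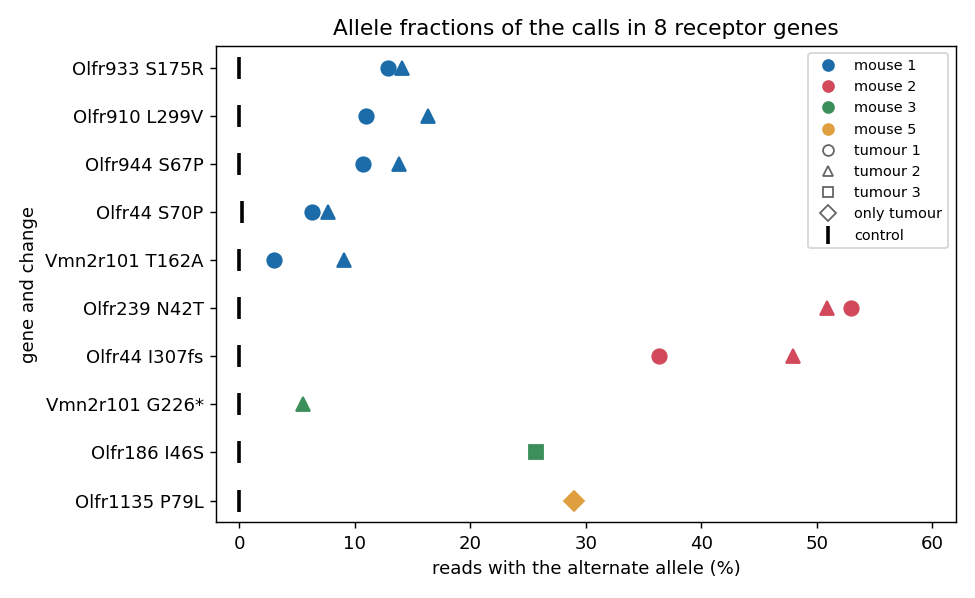
Allele fractions of the 17 calls in the 8 receptor genes, with the share of reads carrying the alternate allele in % on the x axis and the gene and change on the y axis. Colours mark the mouse, symbols the tumour and black ticks the control of the same mouse; mouse 1 lies between 3.02 and 16.4%, mouse 2 between 36.4 and 52.9%, and the controls at 0 except 0.249% for Olfr44 S70P.

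Taken per site with tumours of a mouse averaged, the fractions in the 8 genes had a median of 13.5%, from 5.47% for G226* to 51.9% for Olfr239. The corresponding median was 7.85% at the 18 sites of the other 16 receptor genes and 12.6% at the 236 sites of all remaining genes. Without mouse 1 the median in the 8 genes was 28.9%, more than 1.5 times higher. Read depth is unknown, so no interval is given for a fraction. No test was made, because the genes were chosen by their calls, and a call already rests on reads in tumour and control.

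Alternate reads in the control were listed at 1 of 10 sites in the 8 genes, at 2 of 28 in all receptor genes (7.14%, exact 95% interval 0.877 to 23.5) and at 54 of 236 in other genes (22.9%, 17.7 to 28.8). A database identifier was present at 1 of 10 sites, 2 of 28 and 33 of 236. The file gives a quality score to 138 of 236 sites in other genes but to 0 of 28 receptor sites, an exact 95% interval of 0 to 12.3%. In mouse 1, where most sites lie, 90 of 130 other sites and 0 of 12 receptor sites had a score. How the score was made is not given in the sources used here, and the gap was not tested. These intervals treat sites as independent and cover counting error only.

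The place of the changes along the proteins was spread out. In the 8 genes it ran from 13.3% of the length (Olfr239) to 97.8% (the Olfr44 frameshift), and over all 28 receptor sites the median was 51.4%. Of the 10 sites, 7 lay at the first base of their codon, among them the deletion in Olfr44. Over all 28 receptor sites, 17 lay at the first base, 9 at the second and 2 at the third. Since the table holds 0 synonymous calls, nothing is read from these counts. The proteins had a median of 310.5 residues, and Vmn2r101 was the longest of the 8. The called genes outside the receptor families had a median of 536.5 residues over the 166 with a length in the file.

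**Figure D3:**
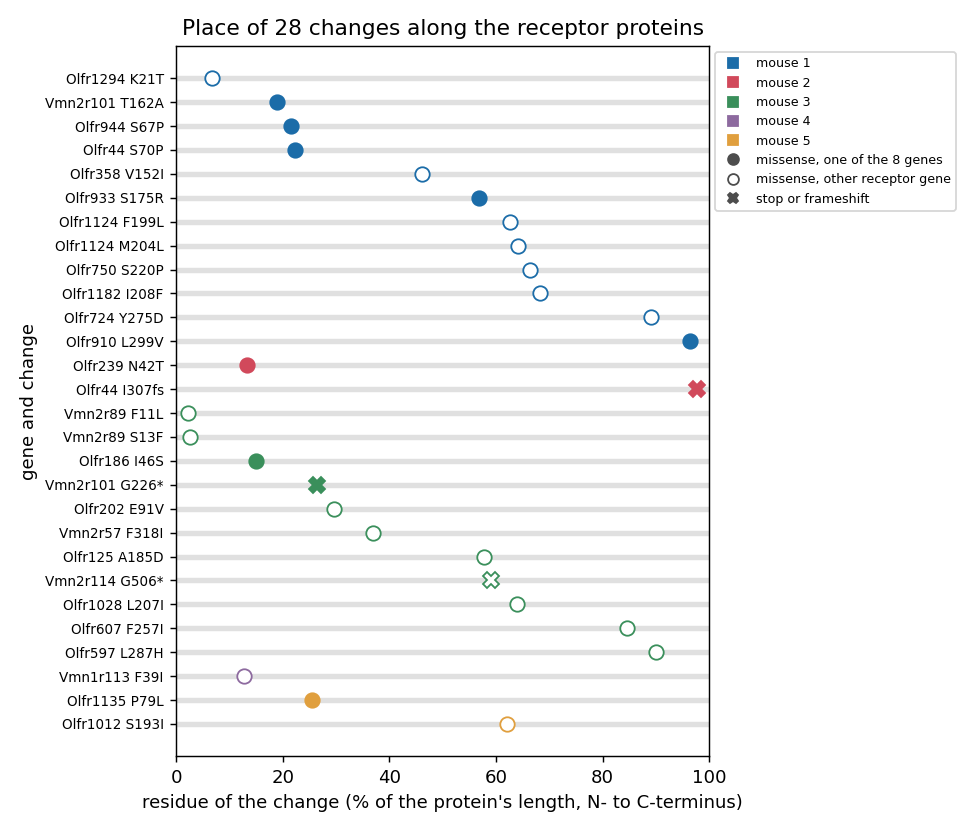
Place of the 28 receptor changes, as residue number in % of the protein's length on the x axis, with 1 line per gene and change ordered by mouse. Filled symbols are the 8 genes, open symbols the other 16 receptor genes, circles missense changes and crosses stop or frameshift changes; the changes run from 2.17% (Vmn2r89 F11L) to 97.8% (Olfr44 I307fs).

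Set against the size of the families, all receptor genes held 28 of 264 sites (10.6%, exact 95% interval 7.16 to 15.0), and 24 of 209 called genes (11.5%), beside 6.79% of coding genes. Of the 186 called genes that the reference table lists as coding, the receptor genes made up 12.9%. The share differed among mice. It was 12 of 142 sites in mouse 1 (8.45%), 2 of 46 in mouse 2 (4.35%), 11 of 44 in mouse 3 (25%), 1 of 14 in mouse 4, 2 of 7 in mouse 5 and 0 of 11 in mouse 6. The mean over mice was 12.3% ± 11.7 (SD, n = 6 mice), where the SD gives the spread of single mice and not the error of the mean. Each mouse counts equally in this mean, whether it has 7 sites or 142. Without mouse 3 the share of all sites was 7.73%. No test of the number of receptor genes is given, because the genes were chosen for having calls and differ from other genes in length and in how they are captured.

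**Figure D4:**
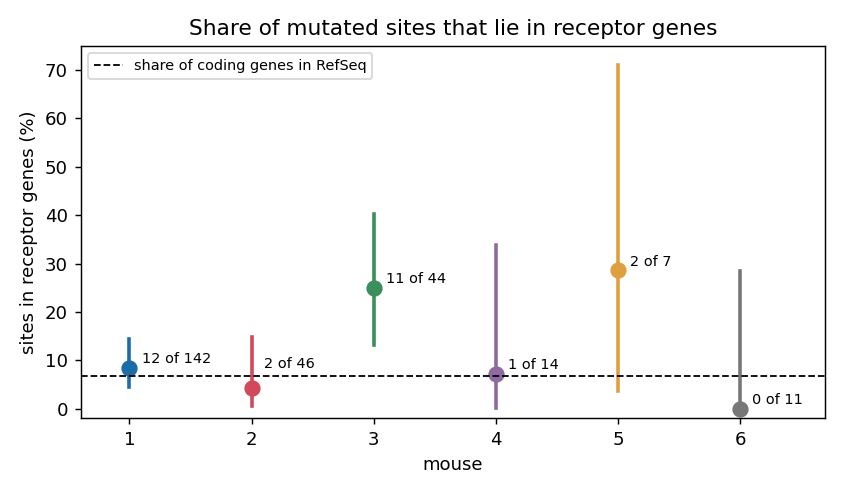
Share of the mutated sites of each mouse that lie in olfactory or vomeronasal receptor genes, in % on the y axis, by mouse. Points are shares, with the number of sites beside them, bars are exact 95% binomial intervals and the dashed line is the 6.79% that these families make up of coding genes; mouse 3 stands at 25% and the interval of each of the other 5 mice includes the line.

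Genes that serve olfactory signalling downstream of the receptors, or guide receptor choice and trafficking, were counted from a list of 30. Of the 30 genes, 1 had a call, beside 186 of all 21896 coding genes (0.849%), and nothing is read from a count this small. This was Slc17a6, a vesicular glutamate transporter gene, with R385* in tumour 1 of mouse 1 (chromosome 7, 51666138; residue 385 of 582) at 3.92% and a control fraction of 0.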

How the data were processed

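The deposited table lists 1 call per line for 11 tumours of 6 mice, with the control of the same mouse on the same line. The deposited table names Strelka as the caller of each call, and BWA and GATK are named, without role or version, in the submitters' processing notes. The build named there, GRCh38, is human, whereas the gene identifiers are mouse. Allele fractions were deposited as a fraction from 0 to 1 in tumour and control and are printed as percentages. Tier and quality score are printed as deposited. Residue numbers, protein lengths and positions are those of the authors' file. Depth cells are empty, so depth is unknown. Of 402 lines, 12 were empty.

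Tumours were mapped to mice through the sample labels. A site is a position and alternate allele, counted once per mouse, with fractions averaged over its tumours. Sites of a mouse were chained within 1 Mb. Shares have exact Clopper-Pearson intervals at 95%. Coding starts were taken from the RefSeq promoter windows (250 bases before and 50 after a gene's start) and compared without gaps, a step added after the data were seen. Python 3.11.15, pandas 2.3.3 and SciPy 1.17.1 were used, and the counting was tested on simulated data. No hypothesis test was made. The planned protein alignments could not be run, because no protein sequences are used here. The 8 genes, the list of 30 genes and the comparisons were chosen with earlier results of these data known. All lines of the 8 genes are named. Of other genes, only other receptor genes, genes of the chromosome 9 stretch, genes of the list with a call, and closest copies are named.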

Additional observations from a re-analysis of the deposited data

How the results depend on the processing

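Of 90 recomputed values, 82 stayed within 1.5 times the reported count, within the interval of the share or within the spread of the median over mice (SD 15.8 percentage points, n = 4 mice). That spread is wider than the median fraction of 13.5% itself, so no fall of the median could count as moved. Its rise to 28.9% without mouse 1 was also counted as unmoved, so the median's part in the 82 says little about stability. The 8 that moved concern these. At tumour fractions of at least 0.1 the sites in all receptor genes fell from 28 to 14, and the sites of the 8 genes with control reads from 1 to 0. Leaving out 1 mouse at a time gave 5 to 10 sites in the 8 genes, 5 to 8 of these genes with a call, 16 to 28 sites in all receptor genes, 0 to 1 sites with control reads and 0 to 4 sites in the chromosome 9 chain. The low values are those without mouse 1. The chain was looked for in mouse 1 alone, so its values on leaving out a mouse were fixed in advance. Keeping only protein-altering calls could not change the counts of receptor sites and genes either, since all 28 receptor sites alter the protein. These values are among the 90 and say nothing about stability. Without mouse 3 there were 17 sites in all receptor genes, and without its tumour 2, an alternative chosen after the data were seen, 21. The chain kept 4 sites with neighbours within 0.5 Mb and had 5 within 5 Mb. The receptor share ran from 7.73% without mouse 3 to 13.1% without mouse 1, and the median fraction in the 8 genes from 12.9% without mouse 2 to 28.9% without mouse 1. No paired analysis was possible because no result comes from a test and control values enter only beside each call. Protein alignments, local or global, and counts over the 5, 10 or 20 closest proteins were not run. Unknown depth limits every allele fraction, and the empty lines limit every count.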

Other observations

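The other 16 receptor genes were Olfr125, Olfr202, Olfr358, Olfr597, Olfr607, Olfr724, Olfr750, Olfr1012, Olfr1028, Olfr1124, Olfr1182, Olfr1294, Vmn1r113, Vmn2r57, Vmn2r89 and Vmn2r114. Mouse 3 held 9 of their 18 sites and mouse 1 held 7. In tumour 2 of mouse 3, receptor genes of both sets made up 7 of 15 calls. In mouse 3, 0 of 11 receptor sites were shared between tumours, against 11 of 12 in mouse 1. Other genes differed between these mice in the same direction, with 1 of 33 sites shared in mouse 3 and 80 of 130 in mouse 1. Averaged over the tumours of a mouse, the highest fraction among the 18 sites was that of Olfr1294 K21T in mouse 1, at 22.9% in tumour 1 and 17.1% in tumour 2. In tumour 2 alone Olfr1182 I208F was higher, at 21.5%. Vmn2r114 carried the stop codon G506* in tumour 1 of mouse 3 at 11.8%, with a control fraction of 0.962%, and this was the other receptor site with control reads.

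In 2 of these genes a pair of changes lay within a few bases of each other in the same tumours. Vmn2r89 had F11L and S13F, 5 bp apart, at 6.02 and 7.78% in tumour 2 of mouse 3. S13F has a database identifier and F11L has none. Olfr1124 had F199L and M204L, 13 bp apart, in mouse 1, at 4.88 and 5.76% in tumour 1 and at 10.3 and 9.78% in tumour 2. Whether the 2 changes of a pair lie on the same reads was not tested, since reads are not used here. On a wider scale, Olfr597 L287H and Olfr607 F257I lay 139 kb apart in tumour 2 of mouse 3, and Olfr186 I46S and Olfr202 E91V lay 256 kb apart in different tumours of that mouse.

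Base changes also differed in kind, as seen after the calls were examined and without a test. With both strands combined, T-to-A and T-to-G changes made up 14 of 28 receptor sites (50%) and 57 of 236 sites in other genes (24.2%). C-to-T changes made up 10.7% and 27.5%. Within mouse 1 the first 2 classes held 6 of 12 receptor sites and 35 of 130 others, and within mouse 3 they held 6 of 11 and 7 of 33. In the 8 genes alone they held 3 of 10, all of them T-to-G changes, and T-to-C changes held 3 of 10 as well. T-to-A changes held 0 of 10 there, so the 7 T-to-A receptor sites all lay in the other 16 genes. The 2 classes were joined after their counts were seen. Serine was replaced by proline at 3 of 28 receptor sites (Olfr44, Olfr944 and Olfr750, all in mouse 1) and at 4 of 236 others.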
